A study of Mus musculus with 12 samples.

Results

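The eukaryotic DNA replication machinery was followed at the RNA level in 12 C26 tumours as a list of 47 genes, from origin recognition to the joining of Okazaki fragments. Each gene was read from the probe set that carries its symbol alone and has the highest mean over the 12 arrays. That gave values for 45 of the 47 genes, out of 12393 genes measured in all. Gins2 and Rnaseh2a lacked a probe set of their own and were not analysed here.

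C26 is a mouse colon carcinoma line, and the tumours grew under the skin of Balb/c mice aged 6 weeks. On day 8 after inoculation, with tumours of about 50 mm3, 4 mice received CP-Dox, 4 received free doxorubicin (Dox), and 4 received phosphate-buffered saline (PBS). Doxorubicin intercalates into DNA and traps topoisomerase II, and in CP-Dox it is attached to a chimeric polypeptide carrier. Tumours were taken after 48 h, 1 array was run per tumour, no group received the carrier alone, and no dose is given in the sources used here. Each value is a log2 RMA signal, in which 1 unit stands for a 2-fold difference, and signals are compared between tumours for the same gene but not 1 gene with another. The error after a log2 fold change is the standard error from limma (n = 4 tumours a group), and "rose" and "fell" are used for an adjusted p under 0.05.

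Replication origins are marked by the origin recognition complex, to which Cdc6 and Cdt1 recruit the MCM helicase, a step known as licensing that geminin (Gmnn) holds in check. The Cdc7 and Dbf4 kinase, Mcm10, Cdc45 and the GINS complex then turn the helicase on. Polymerase alpha with primase starts each strand, polymerases epsilon and delta extend the leading and lagging strands while held by the PCNA clamp, and clamp loader, RPA, Fen1 and ligase 1 complete the fork. Many of these genes are known to be transcribed under E2F factors as cells enter S phase.

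The tumours differed in more than treatment. Across all genes, the mean correlation of an array with its own group was 0.948 for CP-Dox replicate 2, 0.971 to 0.977 for CP-Dox replicates 1, 3 and 4, 0.983 to 0.990 within the Dox group and 0.981 to 0.983 within the PBS group. Keratinocyte markers averaged 2.86 and 4.43 above the PBS mean in CP-Dox replicates 1 and 3 and at most 0.09 above it in every other array, with 0 of 9 past the threshold. Mast cell markers rose with CP-Dox in 8 of 8 genes and endothelial markers in 3 of 6. The mean level of the mast cell list was 9.58 to 10.26 in CP-Dox, 8.10 to 9.55 in Dox and 7.90 to 8.67 in PBS tumours, and that of the endothelial list 7.68 to 7.85, 7.04 to 7.49 and 6.74 to 7.27. Neutrophil markers rose in 1 of 5 genes, S100a8, with mean levels of 7.46 to 8.63, 7.07 to 8.23 and 6.98 to 7.26 in the same order. Skeletal muscle markers had mean levels of 7.28 to 9.81 in CP-Dox, 4.89 to 9.57 in Dox and 4.83 to 11.45 in PBS tumours, with 0 of 10 past the threshold. The part of these cells in the replication values was not tested. Of the colon epithelial markers, Krt8 lay between 9.17 and 12.05 and Krt18 between 5.74 and 10.33, whereas Cdx1, Cdx2, Vil1, Krt19 and Lgr5 lay between 4.01 and 5.44 in all arrays, under the 25th percentile of gene means (5.65). Epcam ranged from 5.29 to 7.87 and Krt20 from 4.49 to 6.56, and Cdh1, which encodes E-cadherin, rose with CP-Dox by 1.25 ± 0.33 (limma adjusted p = 0.0483), the only one of the 10 colon markers past the threshold. In whole tumours, fewer cells of a kind and less RNA per cell cannot be told apart.

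All 45 genes had a lower mean signal in CP-Dox than in PBS tumours, with a median log2 fold change of -0.55, compared with -0.04 over all genes. By the limma fit, 7 of the 45 fell (15.6%) and 0 rose, where 3.23% of all genes fell and 2.35% rose. The 7 were Pold2, Tipin, Orc6, Pole2, Orc2, Pcna and Cdc7, which span origin recognition, firing, both replicative polymerases, the clamp and fork protection. For 21 of the 45 genes each CP-Dox tumour lay below each PBS tumour, against 7.75% of all genes. With free Dox against PBS no gene passed, neither among the 45 nor among all 12393, and the direct comparison of CP-Dox with Dox called 0 of the 45.

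**Figure D1:**
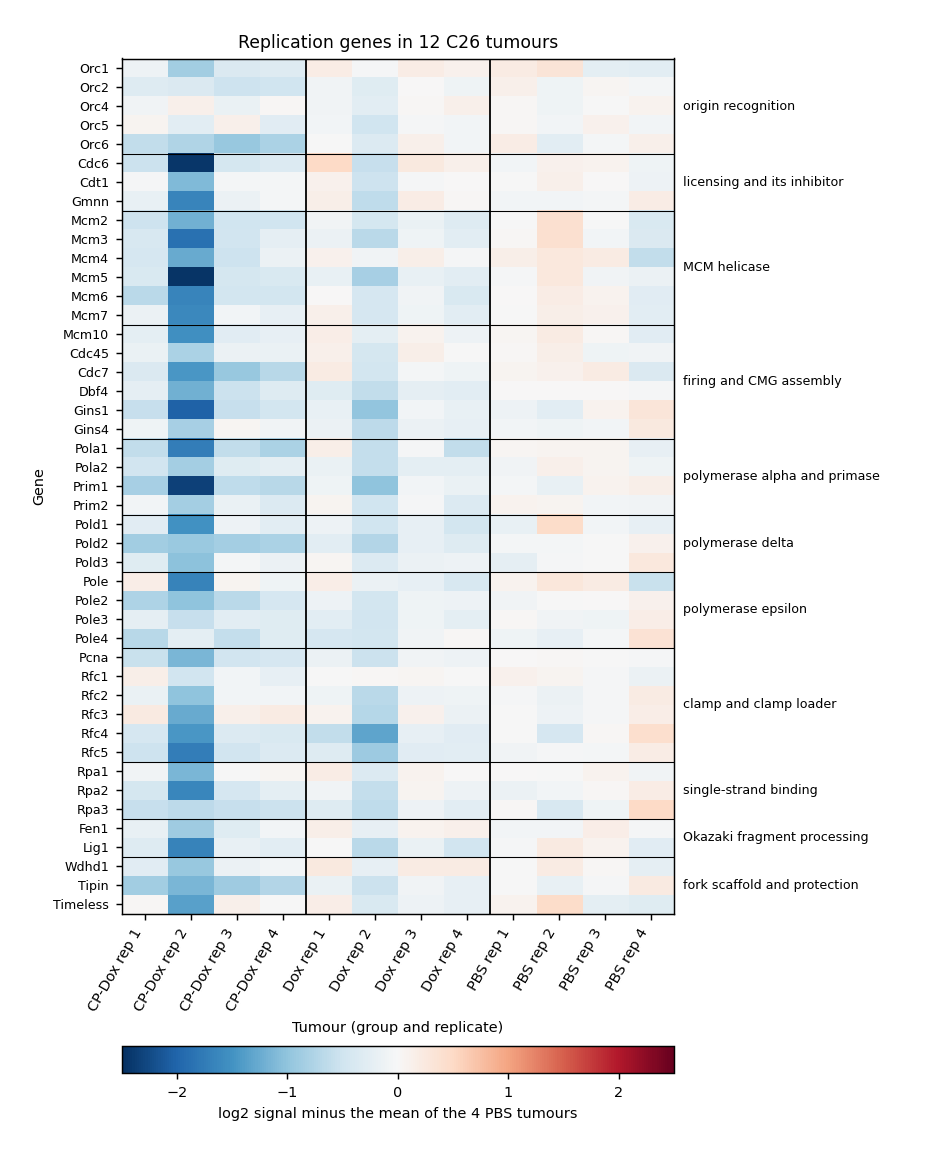
Log2 signal of the 45 replication genes (rows, by role) in each of 12 tumours (columns), minus the mean of the 4 PBS tumours, with blue below and red above that mean. CP-Dox replicate 2 is the darkest column and is the lowest of its group in 40 genes, while the other CP-Dox columns are paler but blue in most rows.

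The genes of origin recognition differed among themselves. Values by tumour are given for replicates 1 to 4 in that order. Orc6, the smallest subunit of the complex, had log2 signals of 8.67, 8.54, 8.35 and 8.50 in CP-Dox tumours, 9.29, 8.95, 9.42 and 9.23 in Dox tumours, and 9.48, 9.03, 9.25 and 9.42 in PBS tumours. All 4 CP-Dox tumours lay below all other tumours, and Dox and PBS tumours overlapped. Orc6 fell with CP-Dox by 0.78 ± 0.13 (1.71-fold lower, limma adjusted p = 0.00725). Orc2, a core subunit, had 8.89, 8.85, 8.69 and 8.72 in CP-Dox tumours, 9.13, 8.91, 9.22 and 9.10 in Dox tumours, and 9.33, 9.10, 9.26 and 9.15 in PBS tumours. Here too the CP-Dox tumours lay below the rest, and Orc2 fell by 0.42 ± 0.09 against PBS (limma adjusted p = 0.0232). With every probe set tested on its own, a dimmer probe set of Orc2 passed at -0.54 ± 0.07 (limma adjusted p = 0.00397). Another did not, at -0.39 ± 0.12 (limma adjusted p = 0.0967).

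Orc1, the subunit whose level is known to vary through the cell cycle, had 6.72, 5.98, 6.48 and 6.53 in CP-Dox tumours, 7.03, 6.81, 7.03 and 6.95 in Dox tumours, and 7.04, 7.16, 6.60 and 6.57 in PBS tumours. CP-Dox tumours lay below the Dox tumours without overlap but overlapped PBS, and Orc1 did not pass in either comparison (-0.41 ± 0.17 against PBS, limma adjusted p = 0.175). Orc4 and Orc5, further subunits of the complex, were at -0.02 and -0.09 against PBS, the smallest differences of the 45 genes. For Orc4, whose probe sets differed in sign, even the direction depended on the setting.

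The promoters of genes that fell with CP-Dox are printed here for the 5 of the 7 that have one in the RefSeq table (build GRCm38.p6) with an E2F or CCAAT match in the window printed, followed by Mcm5 and Mcm6 as members rich in E2F matches, chosen after their values were seen. Each runs 5′ to 3′ on the strand of the gene, from 170 bases before its start to 30 bases after it (the first start listed where a gene has several). Capitals mark matches on either strand to the E2F letters TTTCCCGC, TTTCGCGC, TTTGCCGC or TTTGGCGC, or to CCAAT (which reads ATTGG when on the opposite strand).
Orc2 (chr1:58505080-58505279, minus strand): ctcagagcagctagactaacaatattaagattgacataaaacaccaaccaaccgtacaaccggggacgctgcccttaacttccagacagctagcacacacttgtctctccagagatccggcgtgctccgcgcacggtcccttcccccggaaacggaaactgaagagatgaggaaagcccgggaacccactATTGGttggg
Orc6 (chr8:85299462-85299661, plus strand): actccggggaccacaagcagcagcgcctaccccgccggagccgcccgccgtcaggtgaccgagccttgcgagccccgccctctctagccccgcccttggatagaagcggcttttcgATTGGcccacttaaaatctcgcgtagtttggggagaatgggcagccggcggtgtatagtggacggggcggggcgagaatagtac
Pold2 (chr11:5878227-5878426, minus strand): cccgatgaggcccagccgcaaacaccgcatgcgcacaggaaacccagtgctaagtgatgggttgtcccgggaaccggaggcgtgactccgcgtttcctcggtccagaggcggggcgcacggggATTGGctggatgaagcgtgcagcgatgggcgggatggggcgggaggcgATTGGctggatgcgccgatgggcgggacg
Pole2 (chr12:69228161-69228360, minus strand): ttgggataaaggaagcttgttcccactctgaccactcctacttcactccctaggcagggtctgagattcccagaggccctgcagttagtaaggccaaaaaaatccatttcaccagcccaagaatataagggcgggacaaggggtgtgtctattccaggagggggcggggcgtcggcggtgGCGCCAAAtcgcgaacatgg
Pcna (chr2:132253151-132253350, minus strand): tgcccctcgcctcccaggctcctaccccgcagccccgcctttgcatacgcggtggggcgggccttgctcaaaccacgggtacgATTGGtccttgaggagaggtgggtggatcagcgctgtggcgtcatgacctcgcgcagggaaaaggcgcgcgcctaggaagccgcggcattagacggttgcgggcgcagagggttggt
Mcm5 (chr8:75109339-75109538, plus strand): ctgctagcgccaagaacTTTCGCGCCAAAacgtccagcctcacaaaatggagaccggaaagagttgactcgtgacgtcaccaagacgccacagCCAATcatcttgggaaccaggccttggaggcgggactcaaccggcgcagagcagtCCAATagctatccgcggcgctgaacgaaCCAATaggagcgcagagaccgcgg
Mcm6 (chr1:128359676-128359875, minus strand): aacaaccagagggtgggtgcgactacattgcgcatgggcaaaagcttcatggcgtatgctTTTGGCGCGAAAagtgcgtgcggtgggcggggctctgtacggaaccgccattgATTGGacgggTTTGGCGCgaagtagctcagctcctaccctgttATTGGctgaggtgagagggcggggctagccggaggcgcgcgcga

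Pole2 is the only gene among the first 5 with an E2F match, close to its start, while Orc2, Orc6, Pold2 and Pcna carry CCAAT on the strand opposite the gene. In Mcm5 and in the upstream site of Mcm6, E2F matches on both strands overlap and merge into 1 capital run. Over the 300 bases from 250 before to 50 after the start, 13 of 37 replication promoters held an E2F match (35.1%), against 2.32% of all 27025 promoters in the table and 3.57% of the 9887 of genes on the arrays. CCAAT was found in 19 of 37 (51.4%), against 37.9% and 38.1%. The 8 measured genes without a promoter in the table are Tipin, Gmnn, Mcm4, Gins1, Gins4, Prim2, Pole and Rfc2. Among the 6 genes that fell and have a promoter, 1 held an E2F match and 4 held CCAAT. A match describes the letters of the window and is not a binding site.

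Cdc6, Cdt1 and Gmnn had much lower values in CP-Dox replicate 2 than in replicates 1, 3 and 4. The mean of those other replicates differed little from PBS for Cdt1 (-0.04) and Gmnn (-0.13), and by -0.44 for Cdc6. Cdc6, which loads the helicase at origins, had 7.71, 5.80, 7.79 and 7.91 in CP-Dox tumours, 8.73, 7.67, 8.48 and 8.37 in Dox tumours, and 8.16, 8.35, 8.32 and 8.13 in PBS tumours. CP-Dox tumours lay below PBS tumours without overlap, with replicate 2 far below the other 3. The difference of -0.94 ± 0.40 did not pass (limma adjusted p = 0.189), nor did that of -1.01 ± 0.40 against Dox (limma adjusted p = 0.264). Cdt1, the partner of Cdc6, had 11.14, 10.08, 11.13 and 11.13 in CP-Dox tumours, 11.30, 10.67, 11.15 and 11.18 in Dox tumours, and 11.17, 11.30, 11.19 and 11.05 in PBS tumours. Apart from replicate 2 of each drug group the values of Cdt1 in both drug groups lay within or near the PBS range, and the CP-Dox values lay just below the Dox values.

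Gmnn, the inhibitor of Cdt1, had 9.43, 7.97, 9.49 and 9.59 in CP-Dox tumours, 9.78, 8.99, 9.82 and 9.67 in Dox tumours, and 9.57, 9.56, 9.58 and 9.81 in PBS tumours. As for Cdt1, replicate 2 was the low tumour in both drug groups and the others overlapped with PBS. Neither passed against PBS, at -0.31 ± 0.23 for Cdt1 and -0.51 ± 0.32 for Gmnn (limma adjusted p = 0.421 and 0.351). The probe sets of Cdt1 differed in sign: those with means of 11.04 and 9.93 over the 12 arrays were at -0.31 and -0.33. The third was at 0.11, with a mean of 3.81, under the 25th percentile of gene means (5.65).

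The 6 subunits of the MCM helicase, the motor that unwinds the fork, lay between -0.51 and -0.92 against PBS (median -0.71), and 0 of 6 passed. Mcm2 had 9.53, 8.86, 9.56 and 9.56 in CP-Dox tumours, 9.97, 9.62, 9.89 and 9.73 in Dox tumours, and 10.04, 10.45, 10.05 and 9.69 in PBS tumours. CP-Dox tumours lay below Dox and PBS tumours, and the difference from PBS of -0.68 ± 0.19 was close to the threshold (limma adjusted p = 0.0572). With every probe set tested on its own, a second probe set of Mcm2 passed at -0.49 ± 0.13 (limma adjusted p = 0.0449). Mcm5 had 10.35, 8.27, 10.29 and 10.36 in CP-Dox tumours, 10.55, 9.90, 10.54 and 10.47 in Dox tumours, and 10.70, 11.00, 10.65 and 10.59 in PBS tumours. The 4 CP-Dox tumours again lay below PBS, but replicate 2 stood at -2.06 relative to the mean of the other 3, and -0.92 ± 0.40 did not pass (limma adjusted p = 0.191). Mcm6 was at -0.81 ± 0.24 (limma adjusted p = 0.0717), without overlap between CP-Dox and PBS tumours, while Mcm3, Mcm4 and Mcm7 overlapped PBS.

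Of the 6 genes of origin firing, 1 fell. Cdc7, the kinase that phosphorylates the MCM helicase, had 6.78, 5.68, 6.19 and 6.44 in CP-Dox tumours, 7.35, 6.69, 7.09 and 7.03 in Dox tumours, and 7.22, 7.24, 7.34 and 6.77 in PBS tumours. CP-Dox replicate 1 and PBS replicate 4 nearly coincided, so that these groups overlapped, unlike for the other genes that fell. Cdc7 fell by 0.87 ± 0.22 (1.83-fold lower, limma adjusted p = 0.045), and its second probe set, at -0.43, passed as well. Dbf4, which activates Cdc7, was at -0.57 ± 0.18 with no overlap (limma adjusted p = 0.0916). Mcm10, Cdc45, Gins1 and Gins4, which build the active helicase, ranged from -0.24 for Gins4 to -0.91 for Gins1, and none of these 4 passed.

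**Figure D2:**
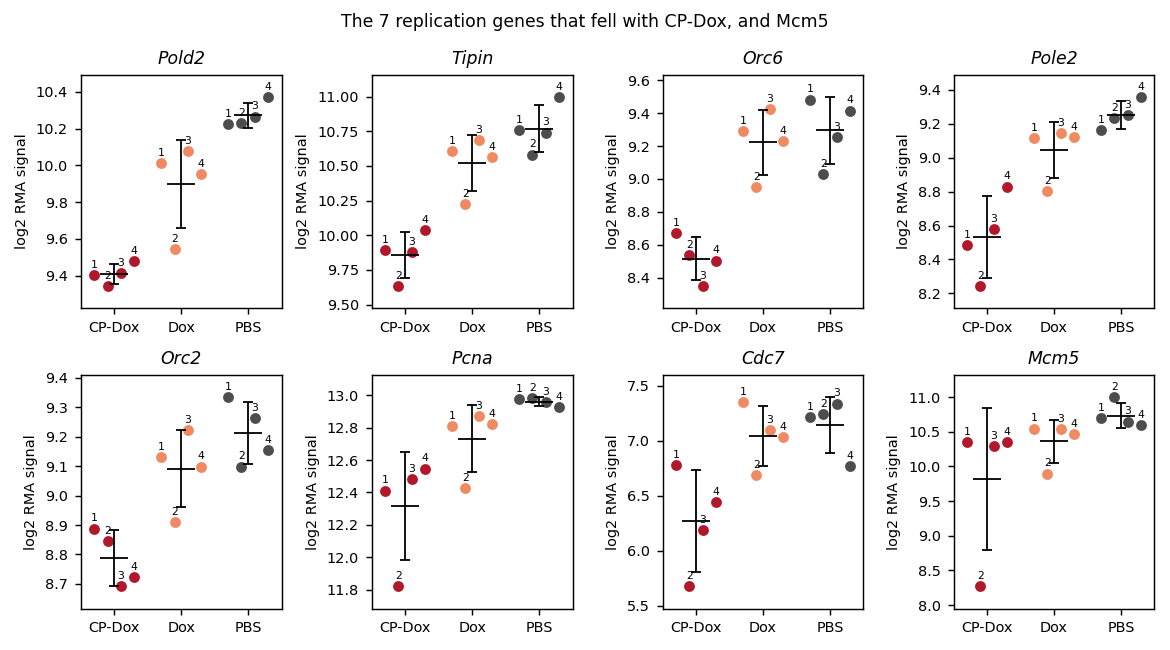
Log2 RMA signal of the 7 genes that fell with CP-Dox and of Mcm5 in each tumour, by group, with replicate numbers beside the points, the mean as a horizontal bar and the SD as whiskers (n = 4). In Pold2 and Orc6 the 4 CP-Dox tumours sit close together below the rest, whereas in Mcm5 and Pcna replicate 2 sits well below the other CP-Dox tumours.

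Polymerase subunits gave both the strongest call and some of the widest spreads. Pold2, the accessory subunit of polymerase delta, had 9.40, 9.34, 9.41 and 9.48 in CP-Dox tumours, 10.01, 9.55, 10.08 and 9.95 in Dox tumours, and 10.22, 10.23, 10.26 and 10.37 in PBS tumours. The 3 groups did not overlap, with CP-Dox lowest, Dox between and PBS highest. Pold2 fell with CP-Dox by 0.86 ± 0.11 (1.82-fold lower, limma adjusted p = 0.00338). Its catalytic partner Pold1 had 8.37, 7.14, 8.52 and 8.40 in CP-Dox tumours, 8.52, 8.17, 8.45 and 8.19 in Dox tumours, and 8.48, 9.11, 8.58 and 8.46 in PBS tumours. Only replicate 2 was far from the other groups, and Pold1 did not pass at -0.55 ± 0.27 (limma adjusted p = 0.248). A second probe set of Pold1, in the fit of every probe set, was at -0.24 ± 0.25 (limma adjusted p = 0.586).

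In polymerase epsilon, too, a non-catalytic subunit passed and the catalytic one did not, though the difference between the subunits was not tested. Pole2, its second subunit, had 8.48, 8.24, 8.58 and 8.83 in CP-Dox tumours, 9.12, 8.80, 9.15 and 9.12 in Dox tumours, and 9.16, 9.24, 9.25 and 9.36 in PBS tumours. CP-Dox tumours lay below all PBS tumours, and CP-Dox replicate 4 lay just above Dox replicate 2. Pole2 fell by 0.72 ± 0.12 against PBS (1.65-fold lower, limma adjusted p = 0.00937). Pole, the catalytic subunit, had 7.89, 6.06, 7.80 and 7.62 in CP-Dox tumours, 7.90, 7.58, 7.51 and 7.33 in Dox tumours, and 7.80, 8.01, 7.92 and 7.16 in PBS tumours. Apart from CP-Dox replicate 2 its groups overlapped, at -0.38 ± 0.35 (limma adjusted p = 0.535). The small histone-fold subunits Pole3 and Pole4 were at -0.34 ± 0.11 and -0.46 ± 0.16, both without overlap and neither past the threshold (limma adjusted p = 0.0919 and 0.119). In the fit of every probe set, dimmer probe sets of Pole3 were at -0.20 and -0.24 (limma adjusted p = 0.464 and 0.245). That of Pole4 was at -0.55 (limma adjusted p = 0.0597).

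In polymerase alpha and primase, which lay the first primers, the largest mean difference of the 45 genes was that of the primase subunit Prim1, at -1.12 ± 0.34 (2.17-fold lower). It did not pass (limma adjusted p = 0.0814). Pola1, the catalytic subunit, had 7.62, 6.50, 7.60 and 7.43 in CP-Dox tumours, 8.37, 7.62, 8.18 and 7.61 in Dox tumours, and 8.28, 8.29, 8.29 and 8.02 in PBS tumours. CP-Dox tumours lay below PBS tumours but met Dox replicates 2 and 4, and the difference from PBS of -0.93 ± 0.25 missed the threshold narrowly (limma adjusted p = 0.0511). With every probe set tested on its own, the same probe set of Pola1 passed as narrowly (limma adjusted p = 0.0497). The regulatory subunit Pola2 was at -0.47 ± 0.14 (limma adjusted p = 0.0734), and Prim2, the large primase subunit, at -0.36 ± 0.17 (limma adjusted p = 0.232).

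Pcna encodes the sliding clamp that tethers the polymerases to DNA. It had 12.41, 11.82, 12.48 and 12.55 in CP-Dox tumours, 12.81, 12.43, 12.87 and 12.82 in Dox tumours, and 12.98, 12.99, 12.96 and 12.93 in PBS tumours. Both drug groups lay below PBS without overlap, and Dox replicate 2 lay among the CP-Dox values. Pcna fell with CP-Dox by 0.65 ± 0.15 (1.56-fold lower, limma adjusted p = 0.0346). Of the 5 genes of the clamp loader, which opens the ring, none passed. Rfc1, its large subunit, had 8.52, 7.90, 8.32 and 8.17 in CP-Dox tumours, 8.37, 8.41, 8.44 and 8.37 in Dox tumours, and 8.49, 8.46, 8.35 and 8.23 in PBS tumours, with overlap and a difference of -0.15 ± 0.12 (limma adjusted p = 0.449). The small subunits Rfc2, Rfc3, Rfc4 and Rfc5 ranged from -0.18 for Rfc3 to -0.76 for Rfc5.

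RPA coats the single strands exposed at the fork. Rpa3, its smallest subunit, had 9.64, 9.54, 9.63 and 9.66 in CP-Dox tumours, 9.88, 9.56, 10.08 and 9.95 in Dox tumours, and 10.23, 9.81, 10.09 and 10.70 in PBS tumours. The CP-Dox tumours were tight and below PBS, and -0.59 ± 0.17 did not pass (limma adjusted p = 0.0649). Rpa1, the large subunit, had 11.20, 10.15, 11.28 and 11.34 in CP-Dox tumours, 11.48, 10.95, 11.37 and 11.30 in Dox tumours, and 11.30, 11.27, 11.37 and 11.21 in PBS tumours. Apart from replicate 2 its groups overlapped (-0.29 ± 0.23, limma adjusted p = 0.456). A second, dimmer probe set of Rpa1 was at -0.58 ± 0.15 and passed when every probe set was tested on its own (limma adjusted p = 0.0456). Rpa2, the middle subunit, was at -0.68 ± 0.26 without overlap (limma adjusted p = 0.151).

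The enzymes that finish Okazaki fragments did not pass. Fen1, the flap endonuclease, had 10.27, 9.58, 10.16 and 10.40 in CP-Dox tumours, 10.60, 10.25, 10.55 and 10.59 in Dox tumours, and 10.40, 10.38, 10.63 and 10.43 in PBS tumours. Lig1, the ligase that seals the nicks, had 9.26, 7.91, 9.38 and 9.30 in CP-Dox tumours, 9.57, 8.91, 9.41 and 9.09 in Dox tumours, and 9.54, 9.80, 9.67 and 9.29 in PBS tumours. CP-Dox and PBS tumours met at CP-Dox replicate 4 for Fen1 and at PBS replicate 4 for Lig1, at -0.36 ± 0.16 and -0.61 ± 0.29 (limma adjusted p = 0.202 and 0.232). At the fork itself, Tipin, which with Timeless stabilizes stalled forks, had 9.90, 9.64, 9.88 and 10.03 in CP-Dox tumours, 10.61, 10.23, 10.68 and 10.56 in Dox tumours, and 10.76, 10.58, 10.74 and 11.00 in PBS tumours. CP-Dox tumours lay below all others, and Tipin fell against PBS by 0.91 ± 0.13 (1.88-fold lower, limma adjusted p = 0.00433). Its partner Timeless (-0.30 ± 0.30) and the polymerase alpha anchor Wdhd1 (-0.36 ± 0.18) did not pass (limma adjusted p = 0.566 and 0.259).

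Origin licensing, polymerases and clamp can be set side by side against PBS. The 14 genes of origin recognition, licensing and the MCM helicase had a median of -0.55 with 2 that fell, the 11 polymerase and primase subunits -0.47 with 2, and the 6 of the clamp and its loader -0.49 with 1. Groups without overlap made up 6 of 14, 7 of 11 and 2 of 6 genes in that order, where 3.23% of all genes fell and 7.75% were without overlap. With CP-Dox replicates 1, 3 and 4 alone the medians were -0.37, -0.34 and -0.24. These medians are descriptions, and the difference between classes was not tested.

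**Figure D3:**
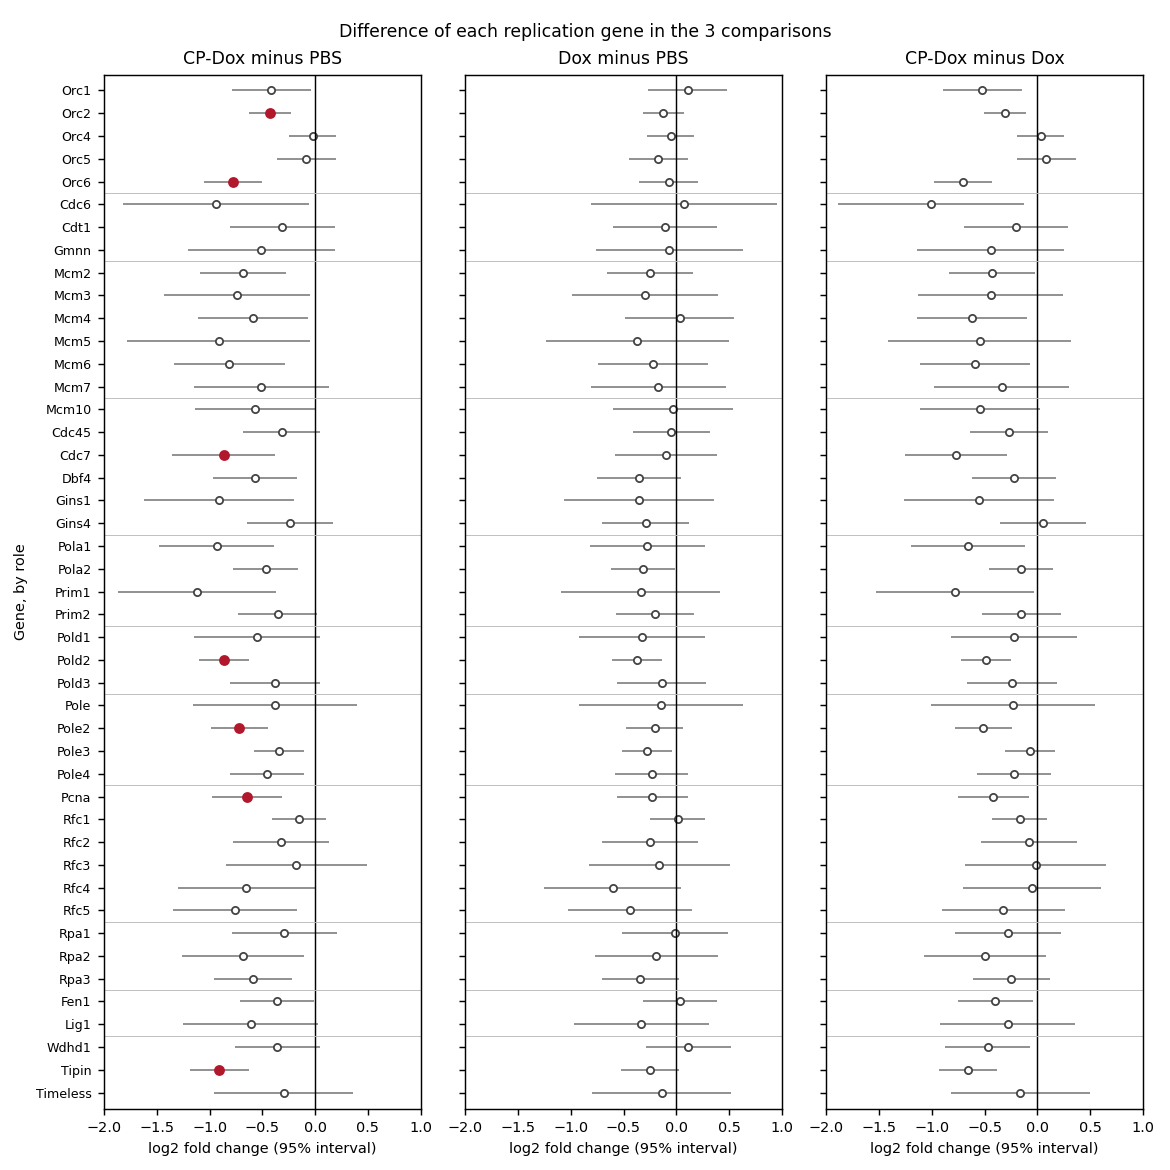
Log2 fold change of each of the 45 genes with its 95% confidence interval from the limma fit, for CP-Dox minus PBS, Dox minus PBS and CP-Dox minus Dox. Filled red points passed an adjusted p of 0.05, as 7 genes did in the first panel and none in the other panels, where most points still lie left of 0.

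Free Dox at 48 h gave smaller differences. Of the 45 genes, 39 had a lower mean in Dox than in PBS tumours and 6 a higher one, with a median of -0.20, compared with 0.005 over all genes. These directions depended in part on the probe set kept. Among the 25 genes with several probe sets, 10 had probe sets of opposite sign in this comparison. Dox replicate 2 weighed on the Dox means: without it 30 genes were lower and 15 higher, the median was -0.11, and 0 of the 45 passed. By limma 0 fell and 0 rose, as over all genes (0% in each direction), and at an unadjusted p under 0.05 there were 3 of the 45 and 558 of the 12393. The 3 were Pold2 at -0.38 ± 0.11, Pole3 at -0.27 ± 0.11 and the polymerase alpha subunit Pola2 at -0.32 ± 0.14 (limma adjusted p = 0.995 for each). The largest difference was that of the clamp loader subunit Rfc4, at -0.60 ± 0.30, with a 95% confidence interval of -1.26 to 0.05. Dox and PBS tumours did not overlap for 9 of the 45 genes, against 2.13% of all genes.

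The interval of the Dox difference differed much between genes. For Pold2 it ran from -0.61 to -0.14 and for Orc6 from -0.35 to 0.21. For Cdc6 it ran from -0.81 to 0.95, which in this fit leaves room for a sizeable difference of either sign. The fit pools the spread within all 3 groups, so these widths also carry that of the CP-Dox tumours, which are not compared here. Values of Cdc6 spanned 2.10 in CP-Dox, 1.07 in Dox and 0.22 in PBS tumours, so its interval owes part of its width to the CP-Dox group. The 2 comparisons with PBS share the same 4 PBS tumours, and their values are therefore not independent. For the genes that fell with CP-Dox, the differences from PBS were -0.86 with CP-Dox and -0.38 with Dox for Pold2, -0.91 and -0.25 for Tipin, and -0.78 and -0.07 for Orc6. They were -0.72 and -0.21 for Pole2, -0.42 and -0.12 for Orc2, -0.65 and -0.23 for Pcna, and -0.87 and -0.10 for Cdc7.

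The direct comparison of CP-Dox with Dox tested these gaps. Means were lower in CP-Dox tumours for 42 of the 45 genes, with a median of -0.32 against -0.03 over all genes. Without CP-Dox replicate 2 they were lower for 30 of the 45. Pole3, Rfc1 and Rfc3 had probe sets of opposite sign in this comparison. With all arrays none of the 45 passed, where 0.169% of all genes fell and 0.0565% rose. At an unadjusted p under 0.05 were 16 of the 45, all lower in CP-Dox, and 1991 of the 12393 genes, 1164 of them lower. Nearest to the threshold were Orc6 at -0.71 ± 0.13, Tipin at -0.66 ± 0.13, Pold2 at -0.49 ± 0.11 and Pole2 at -0.51 ± 0.12 (limma adjusted p = 0.0521, 0.0578, 0.0875 and 0.106). The groups did not overlap for 8 of the 45 genes, against 6.34% of all genes, and 6 of the 8 belong to origin recognition (Orc1, Orc2, Orc6) and the MCM helicase (Mcm2, Mcm4, Mcm6). Pold2 and Tipin were the others. For Cdc7 and Pcna the differences were -0.77 ± 0.22 and -0.42 ± 0.15 (limma adjusted p = 0.154 and 0.235), and these groups overlapped.

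Among tumours, 1 array weighed heavily on the means. Averaged over the 45 genes, CP-Dox replicates 1 to 4 lay at -0.33, -1.21, -0.34 and -0.30 relative to the PBS mean, Dox replicates 1 to 4 at -0.04, -0.51, -0.05 and -0.16, and PBS replicates 1 to 4 at -0.004, 0.04, 0.006 and -0.04. CP-Dox replicate 2 was the lowest tumour of its group in 40 genes and Dox replicate 2 in 42. The other CP-Dox tumours were nonetheless below the PBS mean in 40, 40 and 42 of the 45 genes. Leaving CP-Dox replicate 2 out added no gene to the 21 without overlap. That was fixed in advance for the 40 genes in which it was lowest, since overlap depends on the highest CP-Dox tumour. Mitotic markers, like the 45 genes, had the lowest mean of each drug group in replicate 2. Unlike over the 45 genes, CP-Dox replicates 1 and 4 lay above PBS replicate 4. The mean of the mitotic markers was -0.21, -1.77, -0.34 and -0.17 in CP-Dox and -0.14, -0.47, -0.18 and -0.26 in Dox tumours. It was 0.06, 0.15, 0.03 and -0.25 in PBS tumours, and 0 of 10 markers passed the threshold. Their mean level was 8.39 to 9.99 in CP-Dox, 9.69 to 10.02 in Dox and 9.92 to 10.31 in PBS tumours. T and NK cell markers averaged -1.31 in CP-Dox replicate 2, against 0.76 to 1.27 in replicates 1, 3 and 4, with 0 of 8 past the threshold and mean levels of 6.03 to 8.61 in CP-Dox, 6.95 to 8.08 in Dox and 6.81 to 7.80 in PBS tumours. Muscle markers averaged 1.87 above the PBS mean in Dox replicate 2, against -2.81 to -2.77 in the other Dox tumours. Whether any of these cell populations accounts for part of the replication values was not tested.

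**Figure D4:**
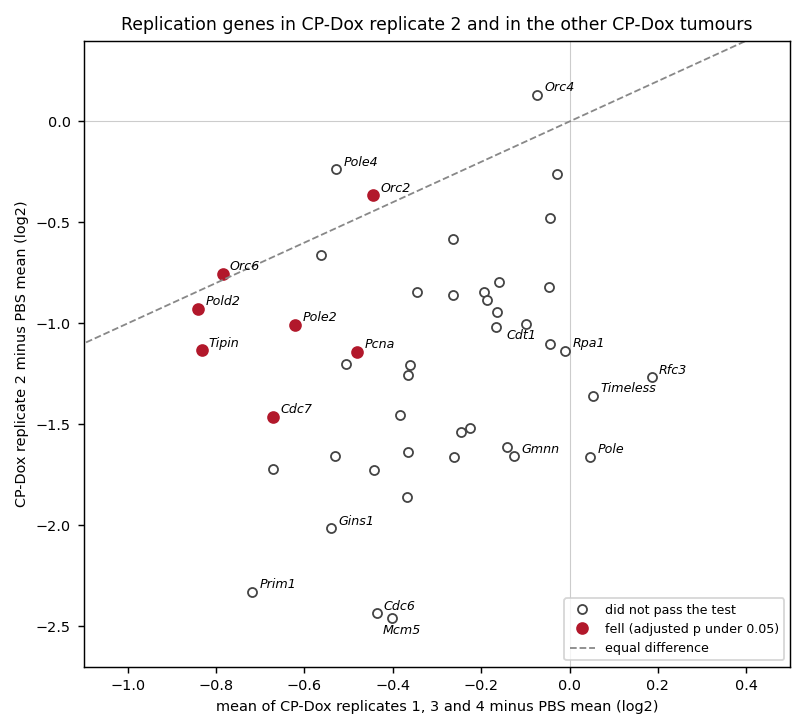
Each point is 1 of the 45 genes, with the mean of CP-Dox replicates 1, 3 and 4 minus the PBS mean on the horizontal axis and CP-Dox replicate 2 minus the PBS mean on the vertical axis (both log2). Filled red marks genes that fell, a call that itself favours a small gap between the tumours. On the dashed line both differences are equal, and Mcm5 and Cdc6 lie lowest, at -2.46 and -2.44 on the vertical axis.

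The lower level of CP-Dox replicate 2 was uneven across the machinery. Its gap to the mean of the other 3 CP-Dox tumours had a median of -0.85 over the 45 genes, and by role it ranged from 0.03 for origin recognition and -0.35 for polymerase epsilon to -1.30 for the MCM helicase and -1.53 for licensing. In the other 3 tumours the difference from PBS was more even, with medians from -0.13 for licensing to -0.51 for polymerase alpha and primase. For the 13 genes with an E2F match in the promoter the median gap was -1.13 and for the 24 without one it was -0.70, while the other 3 tumours were at -0.37 and -0.35. The gaps ran from -2.06 to 0.29 with a match and from -1.61 to 0.21 without one. The 13 include Mcm3, Mcm5, Mcm6, Mcm7, Cdc6 and Cdt1, so this split overlaps with that by role. The difference between the 2 sets was not tested.

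When CP-Dox replicate 2 was left out, 13 of the 45 genes fell against PBS and 0 rose, where 9.17% of all genes fell. Leaving out an array that lies apart also narrows the spread within its group. Mcm2, Mcm6, Dbf4, Pola1, Prim1 and Pole4 then joined the 7, while the median of the 45 genes moved to -0.34. The means of Pole, Rfc3 and Timeless lay 0.05, 0.19 and 0.05 above PBS in that fit. When that array was left out of the comparison with Dox, Orc6, Tipin, Pold2 and Pole2 fell (limma adjusted p = 0.016, 0.022, 0.038 and 0.045), where 4.51% of all genes fell, and the median was -0.07. Without CP-Dox replicates 1 and 3, which carried the keratinocyte markers and left 2 CP-Dox tumours, none of the 45 and 2 of 12393 genes fell against PBS, with a median of -0.76. The 7 genes were then at -0.43 to -1.08.

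Among replication genes outside the 47, such as those of helicase assembly, timing and repair synthesis, 27 of 37 listed were measured. With CP-Dox against PBS their median was -0.36, compared with -0.04 over all genes. Means were lower for 23 of them and higher for 4. Among the 4 were Pold4, another subunit of polymerase delta, at 0.54 ± 0.18, and the polymerase Polk at 0.44 ± 0.15. Neither passed (limma adjusted p = 0.101 and 0.117). Of the 27, 3 fell (11.1%) and 0 rose, where 3.23% of all genes fell and 2.35% rose. The 3 were Donson, which helps to assemble the helicase, at -0.94 ± 0.20, Rif1, which sets replication timing, at -0.63 ± 0.10, and the mitochondrial polymerase Polg at -0.56 ± 0.15 (limma adjusted p = 0.0209, 0.00562 and 0.0484). The call of Polg was lost in 11 of 17 alternative settings and that of Donson in 5, and Polg was at -0.33 with the mean of its probe sets (limma adjusted p = 0.105). Against Dox, Rif1 alone of the 27 passed, barely (-0.56, limma adjusted p = 0.0499), where 0.169% of all genes fell. It lost that call in 11 of 17 settings, with limma adjusted p up to 0.597. Rif1 had 8.11, 7.76, 7.78 and 7.95 in CP-Dox tumours, 8.30, 8.52, 8.59 and 8.44 in Dox tumours, and 8.45, 8.55, 8.56 and 8.56 in PBS tumours. Its CP-Dox values lay below all others, and Dox and PBS values overlapped.

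Of the E2F family and its DP partners, 7 of 10 were measured. With CP-Dox against PBS 3 of the 7 fell (42.9%) and 0 rose, where 3.23% of all genes fell and 2.35% rose. The dimerization partner Tfdp1 fell by 0.58 ± 0.09, the activator E2f1 by 0.65 ± 0.13 and the repressor E2f8 by 1.03 ± 0.20 (limma adjusted p = 0.00523, 0.0202 and 0.0161). The calls of E2f1 and E2f8 were each lost in 3 of 17 settings, among them the fit of the compared groups alone (limma adjusted p = 0.0567 and 0.0501). With Dox 0 of 7 passed against PBS. The mean of these 7 genes relative to PBS was -0.49, -0.34, -0.56 and -0.45 in CP-Dox replicates 1 to 4, so that replicate 2 was the highest of its group. The single genes differed: E2f1 had 7.75, 7.38, 7.62 and 7.56 and E2f8 had 8.06, 7.36, 7.94 and 8.43 in CP-Dox replicates 1 to 4, lowest in replicate 2. E2f5, another member of the family, had 7.87, 8.84, 7.86 and 7.97 and was highest in replicate 2. So were E2f3, E2f4, E2f6 and Tfdp1, at 6.81, 7.97, 7.36 and 10.76 in that tumour.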

How the data were processed

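RNA from 12 tumours, 4 per group, was hybridized to Affymetrix mouse arrays, 1 per tumour, and sample titles gave the groups. Log2 signals were deposited; per the submitters' processing notes they come from RMA (background correction, quantile normalization and summary of probes) and Partek, with no version given in the sources used here. RMA makes arrays alike in distribution, so that a shift of most genes in 1 tumour would be removed.

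Of 22690 probe sets, 20380 carried 1 symbol and stood for 12393 genes. For each gene the probe set with the highest mean was kept (25 of the 45 replication genes had several). A linear model with 3 group means was fitted over all 12 arrays with limma 3.58.1 in R 4.3.3 (lmFit and eBayes), tested on simulated data first. Two-sided p-values were adjusted by Benjamini and Hochberg over 12393 genes. Replicates are separate mice, and their number limits the precision, with a median standard error of 0.13.

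The members, lists, tests and alternatives were chosen with earlier results of these data known. Values in every tumour are given for members past the threshold, for the member with the lowest p in each role and for a fixed set of central subunits, and Mcm5 and Rif1 were added after their values were seen. Motifs were searched in RefSeq promoters of build GRCm38.p6 without a test. Alternatives were other normalizations, filters, probe set rules, variance models and array sets. Python 3.11.15 with matplotlib 3.10.9 drew the figures.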

Additional observations from a re-analysis of the deposited data

Results flagged for a closer look

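Among 102 sets of 4 tumours examined (20 genes and 14 list means, each in 3 groups), 27 held a tumour whose gap to its nearest neighbour took up more of the range of the group than the 95% critical value of Dixon's test allows. Chance gives about 1 in 20 such sets, and genes and lists that share tumours are not independent. In 19 of the 27 the tumour was CP-Dox replicate 2, as the lowest of its group. The gap was largest for Cdt1 (0.986 of the range), Mcm2 (0.963), Lig1 (0.913), Cdc6 (0.907) and Gmnn (0.905), followed by Pold1 (0.888), Rpa1 (0.882), Pole (0.852) and Pola1 (0.834).

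For list means the gap of CP-Dox replicate 2 took up 0.958 of the range over all 45 replication genes. By role it was 0.981 for the clamp and its loader, 0.929 for licensing, 0.926 for the MCM helicase, 0.918 for Okazaki fragment processing and 0.913 for polymerase alpha and primase. It was 0.886 for the fork scaffold, 0.875 for firing, 0.860 for RPA and 0.836 for polymerase epsilon. The means of origin recognition, of polymerase delta, of the E2F factors and of the other replication genes held no such gap in the CP-Dox group.

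Dox replicate 2 was the low tumour of its group for Pole2 (0.915), Pcna (0.867), Fen1 (0.860) and the mean of the clamp and its loader (0.843). In the PBS group, replicate 4 was high for Gmnn (0.921) and low for Pola1 (0.943), replicate 3 was high for Fen1 (0.830), and replicate 1 was high for the mean of origin recognition (0.882). Whether anything in the handling of these tumours moves with the gaps was not tested.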

How the results depend on the processing

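Against PBS, 7 of 45 genes fell with CP-Dox. The count was 11 with median centring, 16 with array weights, 4 with the compared groups alone, 13 with the replicate block, 0 without the 2 CP-Dox arrays with keratinocyte markers, and 4 to 13 with each array left out in turn (4 without CP-Dox replicate 3, PBS replicate 1 or PBS replicate 3, and 13 without CP-Dox replicate 2). Other settings gave 6 to 10. Over all genes, 400 fell and 291 rose, against 1359 and 1306 with array weights and 113 and 85 with the compared groups alone. These counts were 503 and 216 with median centring, 493 and 267 with another quantile normalization, and 549 and 446 with the replicate block. They were 1136 and 1227 without CP-Dox replicate 2 and 141 and 73 without CP-Dox replicate 3. Leaving out PBS replicate 1 gave 216 and 180, and leaving out PBS replicate 3 gave 160 and 112. Without the keratinocyte arrays 2 genes fell and 0 rose. Pold2, Tipin, Orc6 and Pole2 passed in every setting run except the one without the keratinocyte arrays (limma adjusted p = 0.0728 to 0.131). Orc2, Pcna and Cdc7 also lost the call with the compared groups alone (limma adjusted p = 0.0657, 0.0860 and 0.108) and without several single arrays. No member rose in any setting.

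In CP-Dox against Dox, where 0 fell, the count was 1 with another quantile normalization, 1 with median centring, 2 without the dimmest genes, 1 with the mean of probe sets, 13 with array weights, 1 with the replicate block and 0 to 4 with each array left out (4 without CP-Dox replicate 2). Over all genes, 21 fell and 7 rose there, against 1096 and 864 with array weights and 559 and 591 without CP-Dox replicate 2. These counts were 33 and 10 with another quantile normalization, 33 and 4 with median centring, and 35 and 12 without the dimmest genes. They were 28 and 6 with the mean of probe sets and 6 and 2 with the replicate block. In Dox against PBS it was 0 throughout.

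The labels name nothing that same-numbered mice share, and their deviations correlated at -0.31 to 0.51, not above 0.1 for every pair, so the replicate block is an alternative only. An array correlated best with its own number in 12 of 24 cases, where chance gives 1 in 4, a hint from the data and not the design.

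Of 764 gene and setting pairs in CP-Dox against PBS, 8 changed sign, none past the threshold. Orc4 was at 0.052 with the mean of probe sets, at 0.080 without the keratinocyte arrays, and at -0.073 to 0.027 with each array left out. Rfc3 was at 0.13 with array weights and -0.31 to 0.19 with each array left out, where Pole was at -0.57 to 0.047 and Timeless at -0.44 to 0.054, all 3 highest without CP-Dox replicate 2. In Dox against PBS with each array left out, Orc6 was at -0.16 to 0.019 and Cdc7 at -0.22 to 0.020, both highest without Dox replicate 2. The causes were not tested. Median centring moved the median of all genes by -0.05, and 4 arrays per group limit what differences can be resolved.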
